A study of Saccharomyces cerevisiae with 7 samples.

Results

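The genes described here encode the subunits of RNA polymerases I, II and III of budding yeast (Saccharomyces cerevisiae). They were taken by symbol from a fixed list of 31 genes, and all 31 were found among the 6341 features counted in each library. Of these, 7 belong to polymerase I alone, 7 to polymerase II alone and 10 to polymerase III alone, 2 are common to polymerases I and III, and 5 are common to all 3 enzymes. The values are counts of RNA bound to ribosomes, so each level joins how much of an mRNA a cell holds and how much of it sits on the ribosomes collected. These 2 quantities cannot be told apart here.

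The study asked which mRNAs are carried by ribosomes that lack Rps26, a protein of the small ribosomal subunit located near the mRNA exit channel. Cells of strain BY4741 had RPS3 and RPS26A under the GAL1 promoter (pGAL1, marked with HisMX6 and NatMX6), RPS26B deleted with KanMX6, and Rps3-TAP on plasmid pCM189. They grew to mid-log in YPGal with 0.2 µg/ml doxycycline, went into YPD for 4 h and received 100 µg/ml cycloheximide. Tagged ribosomes bound to IgG beads for 2 h and freed with TEV protease formed the Minus_Rps26 group (3 libraries). Untagged ribosomes from the flowthrough of the same beads, collected on a 10% to 50% sucrose gradient, formed the Plus_Rps26 group (3 libraries). A single Rps3_TAP library came from BY4741 cells with Rps3-TAP::HisMX6 at its own locus, in mid-log YPD with the same cycloheximide dose, as a bead eluate. Minus_Rps26 and Plus_Rps26 therefore share genotype and culture but differ in the tag and in the way ribosomes were collected. Rps3_TAP differs from both in strain, carbon source history and number of libraries, and no doxycycline is named for it. From Plus_Rps26 it also differs in the tag and in the way ribosomes were collected.

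Total counts in features ran from 9605899 to 21405499. The levels below are counts scaled by each library's trimmed-mean size, given as CPM (counts per 1e+06). RPS26A stood at 44.2, 25.4 and 35.1 CPM in Minus_Rps26, at 48.2, 111 and 96.9 in Plus_Rps26 and at 10140 in Rps3_TAP, so it was low in both groups of the shifted culture. RPS3 stood at 348 CPM in Plus_Rps26 replicate 1 against 6304 and 8332 in replicates 2 and 3, and its levels in Minus_Rps26 were 1451, 3564 and 2087. That library also stood apart from its companions in several subunits named below, and counts of calls are given below with and without it. RPS26B, the deleted gene, had 10 to 17 counts in 5 libraries of the shifted culture and 142 in Plus_Rps26 replicate 2.

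The 3 nuclear RNA polymerases divide transcription: polymerase I makes the large ribosomal RNA precursor, polymerase II makes mRNA, and polymerase III makes tRNA and the 5S ribosomal RNA. All share one plan, with a pair of large subunits forming the catalytic cleft, an assembly platform behind it, a stalk, and small subunits common to several enzymes. In growing yeast most transcription serves the making of ribosomes, to which all 3 enzymes contribute.

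The study's question concerns the bases just before the start codon, the Kozak element, so the start contexts of the subunits on which the comparisons turn are shown first. Each line gives the 20 bases before the ATG on the coding strand, 5′ to 3′, from the authors' deposited table, with positions -4 to -1 in capitals. RPB2, RPC10, RPC11 and RPO26 passed the test between Minus_Rps26 and Plus_Rps26, RPB10 is as short as RPC10, and RPC53 had the highest log2 fold change of the 31.
RPB2: atagaaaaataattatAAGG
RPC10: aaaagtccacaagtatAACA
RPC11: cgtaaaatacataattTAGG
RPO26: gattaaggctacaagtGATC
RPB10: aagcaaaataataataCAAA
RPC53: cgggatagcattcattAAGT
All 6 carry A at -3, the 1 that rose as well as the 3 that fell. Across the 31 subunits, A stood at -3 in 19 (61.3%), as it did in 60.8% of the 5684 genes with a deposited start context. G at -4 was found in 6 subunits (19.4%, against 14.9% of all genes). The run AAAA at -4 to -1 was found in RPA190, RPB3, RPB4 and RET1 (12.9%, against 6.30%).

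Between Minus_Rps26 and Plus_Rps26, the subunits split by size. The 6 large catalytic subunits were each at a positive log2 fold change, from 0.77 to 1.11, while all 12 subunits with a coding length under 600 bases were at a negative one, from -0.24 to -1.46 (4 of these 12 turned positive with total-count scaling). One subunit rose past an adjusted p of 0.05 by edgeR's quasi-likelihood test (RPB2) and 3 fell (RPC10, RPC11 and RPO26). Among all 5668 features tested, 8.10% were called higher and 7.90% lower, so 4 of 31 is near the background of 16.0%. At an unadjusted p under 0.05, 16 of the 31 passed, beside 2121 of all features. The median over the subunits was -0.11, beside 0.03 over all features.

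**Figure D1:**
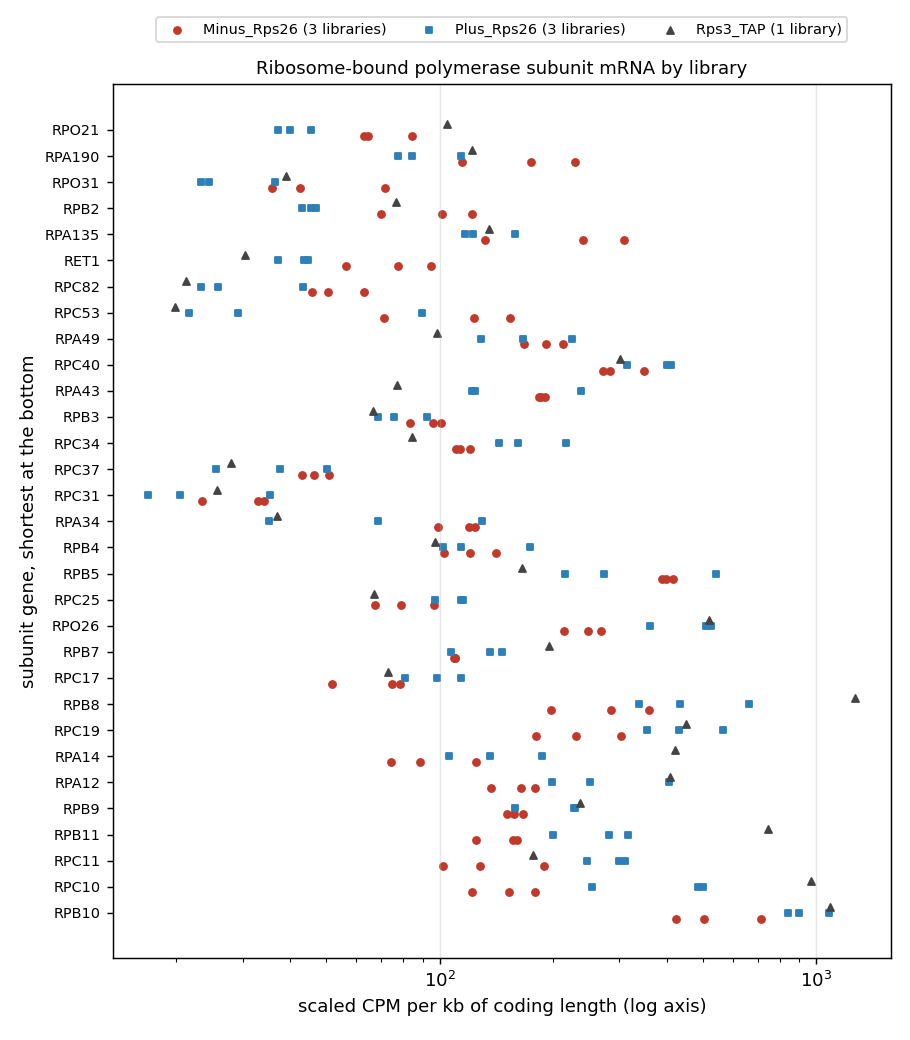
Scaled CPM per kb of coding length (log axis) of the 31 subunit genes in each of the 7 libraries, with the shortest gene at the bottom and 1 point per library, coloured by group. The short genes at the bottom reach the highest levels, 1083 for RPB10 in Plus_Rps26 replicate 3 and 1267 for RPB8 in Rps3_TAP, and of the 6 genes over 3000 bases near the top, RPA190, RPB2, RET1 and RPO21 have all Minus_Rps26 points to the right of all Plus_Rps26 points, while those of RPA135 and RPO31 overlap.

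The largest subunit of polymerase II, RPO21 (Rpb1, whose C-terminal repeats coordinate mRNA processing; YDL140C, chromosome IV 205360 to 210561), stood at 326, 335 and 439 CPM in Minus_Rps26, at 193, 209 and 237 in Plus_Rps26 and at 544 in Rps3_TAP. Its partner in the cleft, RPB2 (YOR151C, chromosome XV 612997 to 616671), stood at 257, 373 and 448 CPM in Minus_Rps26, at 167, 158 and 172 in Plus_Rps26 and at 281 in Rps3_TAP. For both genes every Minus_Rps26 library lay above every Plus_Rps26 library. RPB2 rose 2.16-fold (log2 fold change 1.11 ± 0.29, SE; edgeR adjusted p = 0.0365), from 166 ± 7.21 to 359 ± 96.1 CPM (SD, n = 3). RPO21 had a log2 fold change of 0.78 ± 0.27 and did not pass (edgeR adjusted p = 0.066).

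In polymerase I, RPA190 (YOR341W, chromosome XV 960987 to 965981), the largest subunit, stood at 573, 871 and 1139 CPM in Minus_Rps26, at 388, 423 and 570 in Plus_Rps26 and at 607 in Rps3_TAP. The groups did not overlap, but the lowest Minus_Rps26 library lay just above the highest Plus_Rps26 library. RPA135 (YPR010C, chromosome XVI 577585 to 581196), the second largest, stood at 475, 867 and 1114 CPM in Minus_Rps26, at 422, 442 and 572 in Plus_Rps26 and at 487 in Rps3_TAP, and its groups overlapped. Neither passed: the log2 fold changes were 0.90 ± 0.34 for RPA190 (edgeR adjusted p = 0.0822) and 0.77 ± 0.36 for RPA135 (edgeR adjusted p = 0.14).

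In polymerase III, RPO31 (YOR116C, chromosome XV 539763 to 544145), the largest subunit, stood at 157, 186 and 314 CPM in Minus_Rps26, at 102, 107 and 161 in Plus_Rps26 and at 171 in Rps3_TAP. RET1 (YOR207C, chromosome XV 730008 to 733457), the second largest and the site of mutations that alter termination, stood at 195, 268 and 327 CPM in Minus_Rps26, at 128, 155 and 151 in Plus_Rps26 and at 105 in Rps3_TAP. The RET1 groups did not overlap and those of RPO31 did, by the lowest Minus_Rps26 library. Their log2 fold changes were 0.86 ± 0.28 for RET1 (edgeR adjusted p = 0.0576) and 0.82 ± 0.33 for RPO31 (edgeR adjusted p = 0.101). The standard errors were as large as most gaps between these 6 genes, and whether the enzymes' catalytic pairs differ from one another was not tested.

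The 5 subunits common to all 3 enzymes were mostly at lower levels on Minus_Rps26 ribosomes. RPC10 (Rpb12, a small zinc-binding subunit; YHR143W-A, chromosome VIII 387233 to 387445) stood at 38, 32.5 and 25.9 CPM in Minus_Rps26, at 53.9, 107 and 103 in Plus_Rps26 and at 206 in Rps3_TAP. It had the lowest log2 fold change of the 31, -1.46 ± 0.32, a 2.74-fold fall (edgeR adjusted p = 0.0357). RPO26 (Rpb6, which contacts the base of the stalk; YPR187W, chromosome XVI 911257 to 911800) stood at 135, 146 and 116 CPM in Minus_Rps26, at 197, 286 and 277 in Plus_Rps26 and at 282 in Rps3_TAP, and fell 1.92-fold (log2 fold change -0.94 ± 0.27, edgeR adjusted p = 0.0445). Every Minus_Rps26 library lay below every Plus_Rps26 library for both genes.

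RPB10 (YOR210W, chromosome XV 738320 to 738532), another zinc-binding subunit with the same coding length as RPC10, stood at 152, 107 and 90.1 CPM in Minus_Rps26, at 179, 192 and 231 in Plus_Rps26 and at 232 in Rps3_TAP. RPB8 (YOR224C, chromosome XV 760825 to 761265) stood at 158, 126 and 87.3 CPM in Minus_Rps26, at 191, 293 and 149 in Plus_Rps26 and at 559 in Rps3_TAP. Neither passed, at log2 fold changes of -0.79 ± 0.29 for RPB10 (edgeR adjusted p = 0.0763) and -0.77 ± 0.34 for RPB8 (edgeR adjusted p = 0.121); the groups overlapped for RPB8 alone of these 2 genes. RPB5 (YBR154C, chromosome II 548362 to 549009), part of the jaw that holds incoming DNA, stood at 259, 252 and 269 CPM in Minus_Rps26, at 351, 176 and 139 in Plus_Rps26 and at 107 in Rps3_TAP. Its Plus_Rps26 libraries spanned the whole Minus_Rps26 range, and its log2 fold change was 0.22 ± 0.35 (edgeR adjusted p = 0.674).

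The assembly platform of each enzyme is a pair of subunits, RPC40 and RPC19 in polymerases I and III and RPB3 and RPB11 in polymerase II. In both pairs the longer gene had the smaller log2 fold change in size. RPC40 (YPR110C, chromosome XVI 745828 to 746835) stood at 285, 352 and 273 CPM in Minus_Rps26, at 404, 413 and 316 in Plus_Rps26 and at 304 in Rps3_TAP, and RPC19 (YNL113W, chromosome XIV 412771 to 413199) stood at 130, 98.8 and 77.5 CPM in Minus_Rps26, at 153, 243 and 186 in Plus_Rps26 and at 193 in Rps3_TAP. The log2 fold change was -0.32 ± 0.27 for RPC40 (edgeR adjusted p = 0.417) and -0.93 ± 0.31 for RPC19 (edgeR adjusted p = 0.0565), and only the RPC19 groups did not overlap. RPB11 (YOL005C, chromosome XV 315813 to 316175) stood at 58.2, 56.8 and 45.2 CPM in Minus_Rps26, at 102, 115 and 72.7 in Plus_Rps26 and at 271 in Rps3_TAP, without overlap and at a log2 fold change of -0.86 ± 0.27 (edgeR adjusted p = 0.0524). RPB3 was at 0.24 ± 0.25. Whether the members of a pair differ from each other in their change was not tested.

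The cleavage subunits RPA12, RPB9 and RPC11 are zinc-ribbon proteins, of which RPA12 and RPC11 serve the RNA cleavage activity of polymerases I and III. RPC11 (YDR045C, chromosome IV 547978 to 548310) stood at 63.1, 34 and 42.6 CPM in Minus_Rps26, at 82, 99.3 and 103 in Plus_Rps26 and at 59 in Rps3_TAP, and fell 2.04-fold (log2 fold change -1.03 ± 0.29, edgeR adjusted p = 0.0418). RPA12 (YJR063W, chromosome X 555195 to 555572) stood at 67.6, 62 and 51.6 CPM in Minus_Rps26, at 94.8, 153 and 74.9 in Plus_Rps26 and at 155 in Rps3_TAP. Both genes had all Minus_Rps26 libraries below all Plus_Rps26 libraries, and RPA12 did not pass at -0.84 ± 0.31 (edgeR adjusted p = 0.0801). RPB9 was at -0.38 ± 0.25, with overlapping groups.

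The stalk is formed by RPA43 and RPA14 in polymerase I, RPB7 and RPB4 in polymerase II and RPC25 and RPC17 in polymerase III, and it meets initiation factors and the emerging RNA. RPA14 (YDR156W, chromosome IV 769525 to 769938) stood at 36.7, 51.7 and 30.7 CPM in Minus_Rps26, at 56.4, 77.3 and 43.8 in Plus_Rps26 and at 174 in Rps3_TAP. Its annotated span overlaps that of YDR157W, so reads there could be lost or shared. None of the 6 stalk genes passed: RPA14, at -0.58, was the lowest and RPA43, at 0.21, the highest.

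The subunits that resemble the general factor TFIIF are RPA49 and RPA34 in polymerase I and RPC53 and RPC37 in polymerase III, and RPC82, RPC34 and RPC31 form an initiation subcomplex of polymerase III. RPC53 (YDL150W, chromosome IV 183343 to 184611), which with RPC37 acts in termination and reinitiation, stood at 90.3, 156 and 195 CPM in Minus_Rps26, at 114, 37 and 27.5 in Plus_Rps26 and at 25.2 in Rps3_TAP. Its log2 fold change of 1.30 ± 0.50 was the highest of the 31 and did not pass (edgeR adjusted p = 0.0883), with Plus_Rps26 replicate 1 inside the Minus_Rps26 range. Without that library it was 2.12 (edgeR adjusted p = 0.000538), in a setting where 43.6% of all features passed. Leaving out any other single library gave RPC53 0.92 to 1.55 (edgeR adjusted p from 0.0895 to 0.293). The replicate block gave it 1.56 (edgeR adjusted p = 0.16). RPA34 showed a like pattern, at 69.3, 84.2 and 87.3 CPM in Minus_Rps26, at 91, 48.1 and 24.8 in Plus_Rps26 and at 25.9 in Rps3_TAP (log2 fold change 0.55 ± 0.40, edgeR adjusted p = 0.336). RPC82 was at 0.78 ± 0.31 with no overlap, and RPC34, at -0.61 ± 0.27, had all Minus_Rps26 libraries below all Plus_Rps26 libraries.

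In all, 5 subunits had every Minus_Rps26 library above every Plus_Rps26 library (RPA190, RPB2, RPC82, RET1 and RPO21) and 10 had every one below (RPA12, RPB10, RPB11, RPC10, RPC11, RPC17, RPC19, RPC25, RPC34 and RPO26). Over all features tested, 21.0% lay wholly above and 17.4% wholly below. By enzyme, the median log2 fold change was 0.21 over the 7 subunits of polymerase I alone, -0.11 over the 7 of polymerase II alone, 0.31 over the 10 of polymerase III alone and -0.79 over the 5 common to all. The median coding lengths of these sets were 981, 666, 901.5 and 441 bases.

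The 4 calls rest on few libraries. With the replicate number as a block, no subunit passed and no feature of the 5668 did. The block takes same-numbered eluate and flowthrough as one purification, which the description of Plus_Rps26 replicate 2 leaves uncertain. RPB2, RPC10, RPC11 and RPO26 were each at an edgeR adjusted p = 0.117. In that setting 16 of 31 had an unadjusted p under 0.05, beside 1990 of the 5668 features. Without Plus_Rps26 replicate 1, 12 subunits passed, 4 higher and 8 lower, beside 43.6% of the 5717 features tested. Without both libraries of replicate 1 the count was 15, with 7 higher and 8 lower, beside 47.0% of 5684 features. These shares, like that of the 4 calls, are near the background. With total counts in place of trimmed-mean scaling the median of all features moved from 0.03 to 0.75 and that of the subunits from -0.11 to 0.55, so directions here are relative to the median gene. Under that scaling RPA14, RPB7, RPB9 and RPC17 of the 12 short subunits turned positive, the other 8 stayed negative, and RPC10, RPC11 and RPO26 no longer passed.

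**Figure D2:**
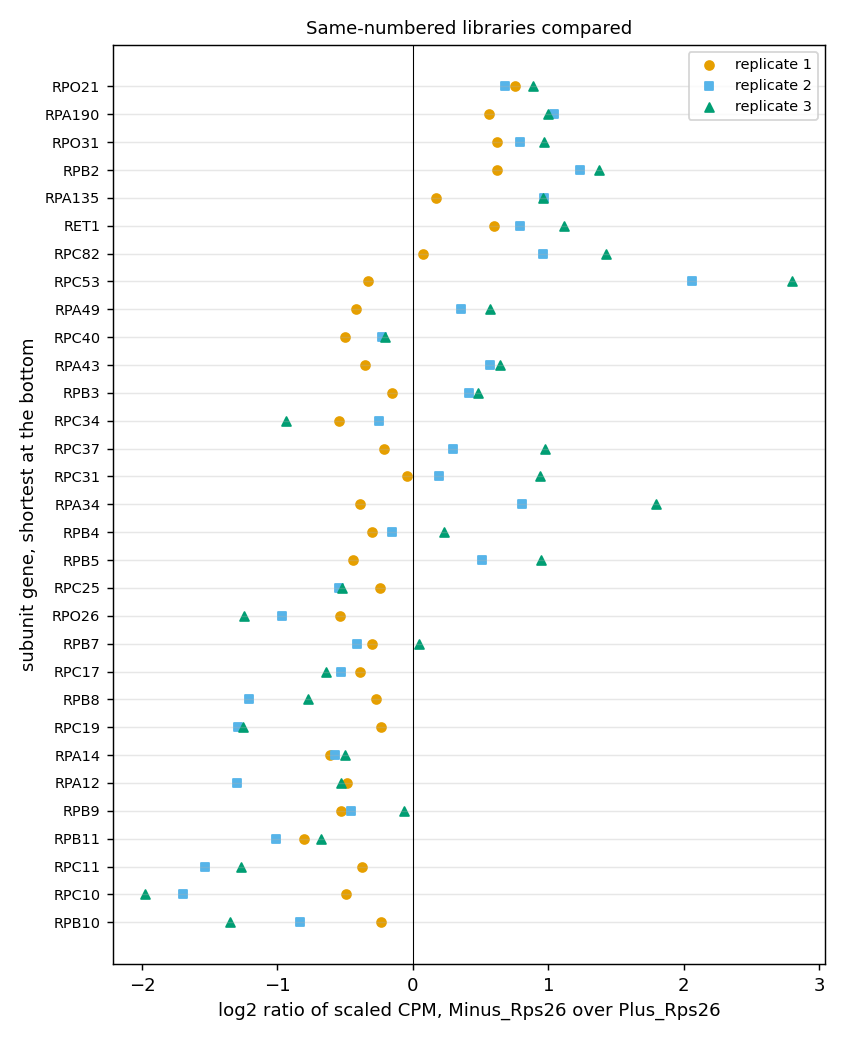
Log2 ratio of scaled CPM between same-numbered Minus_Rps26 and Plus_Rps26 libraries for the 31 subunit genes, shortest at the bottom, with 1 marker per replicate. The ratios of RPC53 are -0.33, 2.06 and 2.80, and those of RPO21 are 0.75, 0.68 and 0.89.

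The replicates differed in how far the subunits moved. For RPB2 the log2 ratios of same-numbered libraries were 0.62, 1.23 and 1.37, for RPC10 -0.50, -1.70 and -1.97, for RPC11 -0.37, -1.53 and -1.27, and for RPO26 -0.54, -0.97 and -1.25. All 4 genes kept their sign in each replicate, with the smallest ratio in replicate 1. RPO21 moved alike in all 3. RPC53, RPA34 and RPB5 (-0.44, 0.51 and 0.95) had a negative ratio in replicate 1 and positive ones in the others.

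Coding length, the span of the annotated gene, ordered the subunits in this contrast. Across the 31, the Spearman correlation between length and log2 fold change was 0.87 (0.63, 0.88 and 0.78 with the ratios of each replicate), and over 5534 nuclear protein-coding genes it was 0.69. These are correlations across genes measured in the same libraries, given as a description. The 9 subunits over 1200 bases were all positive with a median of 0.82, the 10 of 600 to 1200 bases were 6 positive and 4 negative with a median of 0.22, and the 12 under 600 bases were all negative with a median of -0.81. Removing the length trend of each library left no subunit past the threshold and no feature of the 5668. At an unadjusted p under 0.05 there were 3 of 31, beside 1061 of the 5668 features. The removal put RPB2 at 0.01, RPC10 at -0.64, RPC11 at -0.31 and RPO26 at -0.35.

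**Figure D3:**
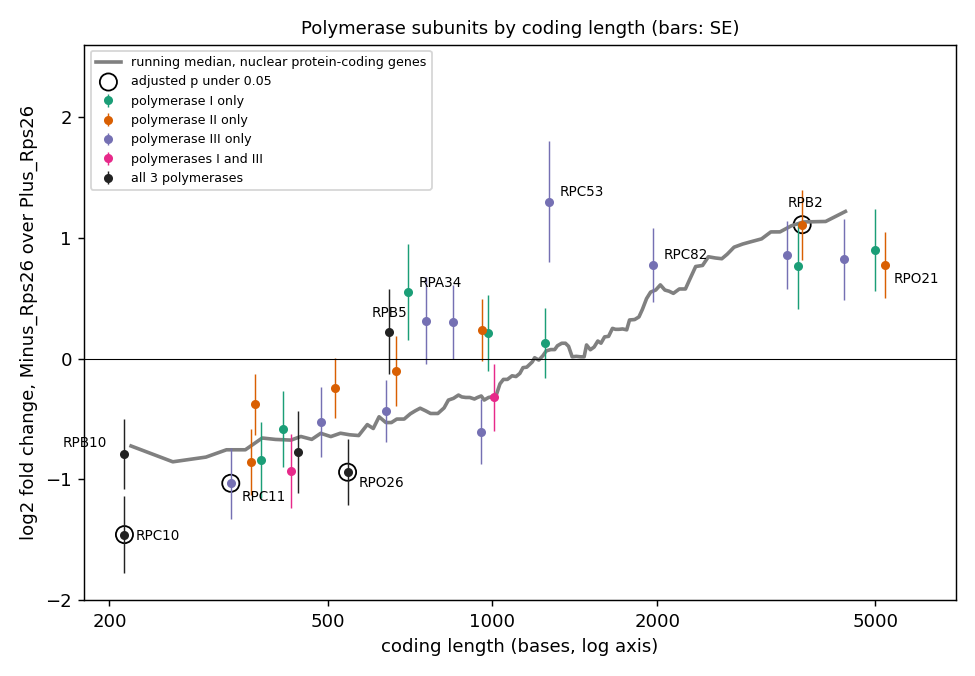
Log2 fold change between Minus_Rps26 and Plus_Rps26 (vertical axis, bars show SE) against coding length in bases (log axis) for the 31 subunit genes, over the running median of nuclear protein-coding genes of like length. With trimmed-mean scaling all 12 subunits under 600 bases lie below 0 (8 with total counts) and all 9 over 1200 bases above it, and RPC53 and RPA34 lie farthest above the median of genes of like length.

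Set beside the 201 genes nearest in length (fewer at the ends of the range), 15 of the 31 subunits lay above the median and 16 below. RPC53 lay 1.23 above on the log2 scale, RPA34 1.03, RPC31 0.76, RPB5 0.74 and RPC37 0.63, followed by RPB3 at 0.56 and RPA43 at 0.54. Of the 4 TFIIF-like subunits, 3 are among these and RPA49 lay 0.09 above. With the length trend removed, edgeR adjusted p was 0.233 for RPC53, 0.258 for RPA34, 0.272 for RPC37 and 0.772 for RPA49. Whether the TFIIF-like subunits differ from genes of like length as a set was not tested. For RPC10 the difference was -0.72, the lowest of the 31. All 6 catalytic subunits lay below the median of genes as long as they are, with differences of -0.02 for RPB2 to -0.51 for RPO21, at whose length that median was 1.29.

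Levels per length differed widely between subunits of one enzyme, on the scale of CPM per kb of coding length. RPB10 had the highest level in all 6 libraries of the shifted culture (423 to 1083), and RPB8 in Rps3_TAP (1267, with RPB10 at 1090). RPC31 had the lowest in 5 libraries, RPO31 in Plus_Rps26 replicate 1 (23.3) and RPC53 in Rps3_TAP (19.9). The median over the 6 catalytic subunits was 66.3, 89.5 and 108 in Minus_Rps26, 41.3, 43.9 and 46.3 in Plus_Rps26 and 90.5 in Rps3_TAP, and that over the 12 short ones was 179, 160 and 132, then 252, 361 and 255, then 436. The ratio of these medians was 0.371, 0.559 and 0.819 in Minus_Rps26 and 0.164, 0.122 and 0.181 in Plus_Rps26, so Minus_Rps26 libraries held the catalytic subunits and the short ones at more nearly equal levels, and Rps3_TAP at 0.208 stood near Plus_Rps26. The subunits together took 0.659%, 0.779% and 0.895% of counts in Minus_Rps26, 0.561%, 0.359% and 0.284% in Plus_Rps26 and 0.341% in Rps3_TAP. These are shares of raw counts, without trimmed-mean scaling. With that scaling their sums lay closer together, at 4561, 5547 and 6249 CPM in Minus_Rps26, 4769, 4734 and 4526 in Plus_Rps26 and 5545 in Rps3_TAP.

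Against the single Rps3_TAP library, more of all features were called for Minus_Rps26, and more of the subunits with them. RET1 and RPC53 were higher, and RPA12, RPA14, RPB8, RPB11, RPC10 and RPO26 were lower. These 8 of 31 are near the background of 26.2% of 5815 features (10.6% higher and 15.6% lower). The single library has no spread of its own and was taken to vary like the others. RPC10 fell 6.41-fold (log2 fold change -2.68 ± 0.41, edgeR adjusted p = 0.00325), RPB11 5.07-fold (-2.34 ± 0.36, edgeR adjusted p = 0.00325), RPB8 4.51-fold (-2.17 ± 0.44, edgeR adjusted p = 0.00808) and RPA14 by 2.13 ± 0.40 on the log2 scale (edgeR adjusted p = 0.00616). For these 4 genes Rps3_TAP lay above all 6 other libraries. RPA12 fell by 1.36 ± 0.42 (edgeR adjusted p = 0.0363) and RPO26 by 1.09 ± 0.37 (edgeR adjusted p = 0.0494) on the same scale. RPC53 rose 5.83-fold (2.54 ± 0.83, edgeR adjusted p = 0.0458) and RET1 2.51-fold (1.33 ± 0.44, edgeR adjusted p = 0.0458), with Rps3_TAP below all 6 other libraries for both. RPA14, RPB8, RPB11 and RPC10 passed whichever of the 6 other libraries was left out. RPA12, RPC53 and RPO26 missed the threshold when any 1 Minus_Rps26 library was left out, RPO26 also without Plus_Rps26 replicate 2 or 3, and RET1 without replicate 2 or 3 of either group. With the length trend removed, 2 subunits passed, RPC10 at -1.38 (edgeR adjusted p = 0.0282) and RPO21, which had missed the threshold in the main test at -0.57.

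All 3 Minus_Rps26 libraries lay above Rps3_TAP for 12 subunits and below it for 11, beside 44.3% and 38.6% of all features. With trimmed-mean scaling the 12 subunits under 600 bases were all negative against Rps3_TAP, with a median of -1.04. Of these, 6 were called lower, beside 15.6% of all features, and 10 had all Minus_Rps26 libraries below Rps3_TAP, beside 38.6%. The distance from Rps3_TAP varied among short genes. RPC11, RPC17 and RPC25 (639 bases), the 3 shortest subunits of polymerase III alone, were at -0.34 ± 0.41, -0.10 ± 0.40 and 0.27 ± 0.37, and none passed. No subunit of polymerase III alone was called lower, against 3 of the 5 common to all enzymes, 2 of the 7 of polymerase I alone and 1 of the 7 of polymerase II alone. Over all features 15.6% were called lower. In the same order the median coding lengths of these sets were 901.5, 441, 981 and 666 bases. Whether the sets differ was not tested.

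Between Plus_Rps26 and Rps3_TAP, no subunit passed edgeR's test, beside a background of 1.48% of 5815 features (0.206% higher and 1.27% lower). At an unadjusted p under 0.05, 7 of 31 passed, beside 1207 of the 5815 features. DESeq2 called 3 lower (RPA14, RPB11 and RPO21), beside 4.62% of all features, and edgeR called the same 3 without Plus_Rps26 replicate 1, beside 10.1% of features in either direction. All 3 Plus_Rps26 libraries lay above Rps3_TAP for 13 subunits and below it for 12, beside 30.6% and 31.1% of all features. The smallest edgeR adjusted p was 0.0686, for RPB11 at -1.49 ± 0.37. RPA14 was at -1.56 ± 0.41 and RPO21 at -1.35 ± 0.36, and at the other end RPC53 was at 1.24 ± 0.77. Both comparisons with Rps3_TAP share that library, so their values are given side by side only: RPC10 was at -2.68 from Minus_Rps26 and -1.23 from Plus_Rps26, RPB8 at -2.17 and -1.40, RPC19 at -0.92 and 0.00, RPO26 at -1.09 and -0.16, and RET1 at 1.33 and 0.46. The Spearman correlation of the log2 fold change with length across the 31 was 0.70 for Minus_Rps26 and 0.23 for Plus_Rps26, beside 0.54 and 0.19 over 5611 nuclear protein-coding genes.

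**Figure D4:**
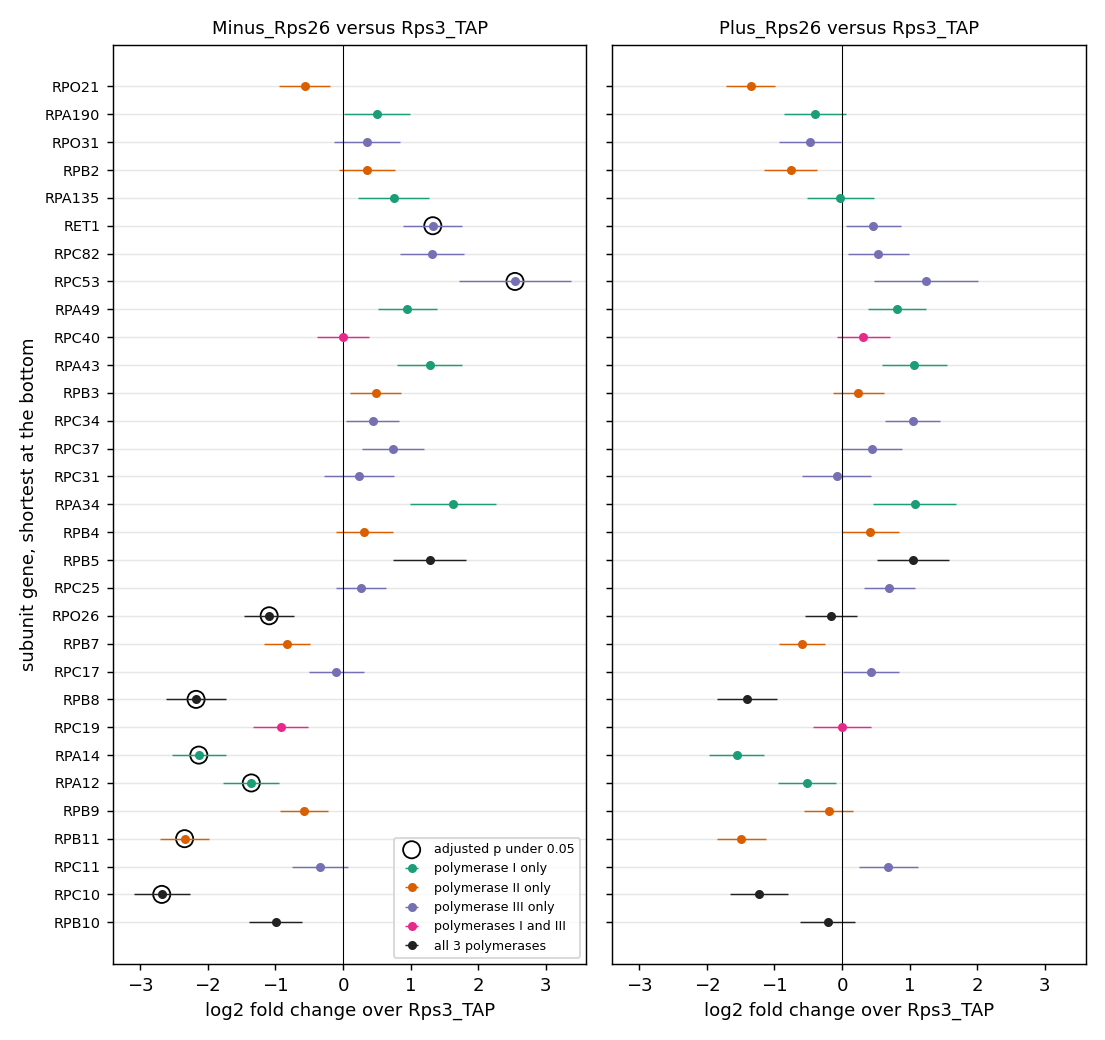
Log2 fold change of Minus_Rps26 (one panel) and Plus_Rps26 (the other) over the single Rps3_TAP library for the 31 subunit genes, shortest at the bottom, with bars for the SE and marks for genes past an adjusted p of 0.05. In the Minus_Rps26 panel 8 genes pass, from RPC10 at -2.68 to RPC53 at 2.54, and in the Plus_Rps26 panel none does.

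Start context was set beside the fold changes for the subunits. Between Minus_Rps26 and Plus_Rps26 the 19 subunits with A at -3 had a median of -0.24, with 1 called higher and 3 lower, and the 12 without it had a median of 0.22 and none called. The median coding lengths of these sets were 648 and 928.5 bases, so start context and length went together here and their parts were not tested apart. T at -3 was found in RPC37 and RPO31 (6.45%, against 10.9% of all genes).

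The polymerases work with initiation factors, elongation factors and assembly factors, of which 69 genes were listed. Between Minus_Rps26 and Plus_Rps26, 12 of the 69 rose and 3 fell (edgeR), beside 8.10% and 7.90% of all features, with a median of 0.36 and a median coding length of 1308 bases. None of these calls remained with the replicate block or with the length trend removed, where no feature passed. The polymerase III factors had the highest median of the 5 lists: 4 of 10 rose (BDP1, BRF1, TFC3 and TFC4), none fell, and the median was 0.86, at a median length of 1788 bases. TFC3, the largest subunit of TFIIIC, stood at 43.9, 51.2 and 87.2 CPM in Minus_Rps26, at 23.5, 20.4 and 17.9 in Plus_Rps26 and at 32.1 in Rps3_TAP (log2 fold change 1.56 ± 0.33, edgeR adjusted p = 0.0357). BDP1, a subunit of TFIIIB, stood at 41.9, 44.4 and 60.7 CPM in Minus_Rps26, at 31.8, 15.4 and 10.2 in Plus_Rps26 and at 18.9 in Rps3_TAP (log2 fold change 1.35 ± 0.40, edgeR adjusted p = 0.0466). Neither gene's groups overlapped.

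Of the 32 general factors of polymerase II, 5 rose and 2 fell, beside 8.10% and 7.90% of all features. TAF2 and TAF1, large subunits of TFIID, were at 1.60 ± 0.29 (edgeR adjusted p = 0.0357) and 1.36 ± 0.36 (edgeR adjusted p = 0.0376). TAF2 stood at 63.3, 87.9 and 113 CPM in Minus_Rps26, at 31.5, 29.7 and 25.6 in Plus_Rps26 and at 24.5 in Rps3_TAP. TAF1 stood at 55.4, 71.1 and 99.7 CPM in Minus_Rps26, at 44.9, 20.3 and 22.5 in Plus_Rps26 and at 22.6 in Rps3_TAP. The genes that fell were TFB5, the smallest subunit of TFIIH, at -1.81 ± 0.36, and TOA2, the small subunit of TFIIA, at -1.60 ± 0.36. TOA2 stood at 44, 40.2 and 27.5 CPM in Minus_Rps26, at 59.3, 146 and 131 in Plus_Rps26 and at 355 in Rps3_TAP. TFB5 stood at 11.3, 8.77 and 6.88 CPM in Minus_Rps26, at 20.9, 36.8 and 36.0 in Plus_Rps26 and at 22.2 in Rps3_TAP. For both genes every Minus_Rps26 library lay below every Plus_Rps26 library. Among 10 elongation factors CTR9 of the Paf1 complex rose (1.05) and SPT4, the small partner of SPT5, fell (-1.84 ± 0.47, edgeR adjusted p = 0.0365, with overlapping groups). SPT4 stood at 23.5, 35.6 and 20.7 CPM in Minus_Rps26, at 34.8, 154 and 95.9 in Plus_Rps26 and at 186 in Rps3_TAP. Of the 9 polymerase I factors 1 rose (RRN11), and of the 8 assembly factors 1 rose (BUD27). The same background of 8.10% higher and 7.90% lower holds for the elongation, polymerase I and assembly lists. Against Rps3_TAP, 4 of the 69 were higher in Minus_Rps26 (BRF1, TAF1, TAF2 and TFB1) and 3 lower (ELF1, SPT4 and TOA2), beside 10.6% and 15.6% of all features. BRF1, a subunit of TFIIIB, stood at 41.1, 66.5 and 78.2 CPM in Minus_Rps26, at 33.2, 21.4 and 26.0 in Plus_Rps26 and at 17.2 in Rps3_TAP. TFB1, a subunit of TFIIH, stood at 111, 109 and 138 CPM in Minus_Rps26, at 104, 67.7 and 86.9 in Plus_Rps26 and at 44.8 in Rps3_TAP. ELF1, an elongation factor, stood at 85.9, 62.3 and 53.0 CPM in Minus_Rps26, at 103, 93.7 and 110 in Plus_Rps26 and at 170 in Rps3_TAP. In Plus_Rps26 against Rps3_TAP none of the 69 was called by edgeR (5 of 69 at an unadjusted p under 0.05, beside 1207 of 5815 features).

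In the authors' deposited tables, 12 of the 31 subunits had an adjusted p under 0.05 between Minus_Rps26 and Plus_Rps26 (5 higher and 7 lower), beside 29.2% of the 5519 rows with an adjusted p (13.5% higher and 15.7% lower). Between Minus_Rps26 and Rps3_TAP the authors' deposited table had 17 (7 higher and 10 lower), beside 46.5% of 5734 rows (22.1% higher and 24.5% lower). Between Plus_Rps26 and Rps3_TAP the authors' deposited table had 0, beside 3.63% of 5732 rows. In the authors' normalized sheet for Minus_Rps26 against Rps3_TAP, the column named for eluate 3 holds replicate 1 again, as described under other observations. The authors' log2 fold changes for RPO31, RPB2 and RPA190 were -0.12, -0.019 and 0.055, beside 0.27, 0.27 and 0.42 with DESeq2 on raw counts. Those for RPA135, RET1 and RPO21 were 0.21, 0.94 and -0.79, beside 0.67, 1.25 and -0.65. Whether the test behind the 17 used the repeated column was not tested.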

How the data were processed

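RNA from the collected ribosomes went into stranded total RNA libraries after removal of ribosomal RNA, per the labels' protocols. The authors deposited raw counts per feature for 7 libraries. TopHat2 2.0.9, DESeq and DESeq2 and the build sacCer3 are named in the submitters' processing notes, and how reads were counted, strand included, is not stated there. Tables the authors deposited with their own comparisons give a log2 value and adjusted p-values per gene. Their deposited normalized sheets, counts over a library factor (a signal), served only to compare columns, and 10 per-sample columns were not used.

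The 5 closing lines of each count file stayed out of library sizes (reads in no feature 3.37% to 7.48%, ambiguous reads 0.148% to 2.75%). Names were looked up in RefSeq's gene table (assembly R64) by symbol or locus tag (5971) or synonym (46), with 324 unmatched and all 31 polymerase genes found. Coordinates and coding lengths come from it; the span of RPO26 holds an intron. Start contexts are the authors' deposited 20 bases, whose last base was taken as -1.

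The test was edgeR 4.0.16 (R 4.3.3): trimmed-mean scaling, the default low-count filter, quasi-likelihood F test, Benjamini-Hochberg adjustment over all features at 0.05. Each standard error is the fitted log2 change over the square root of its F. Minus_Rps26 and Plus_Rps26 were fitted alone, and the comparisons with Rps3_TAP over all 7 libraries. CPM are scaled over all 7. Replicate ratios use CPM plus 0.5. Scripts were tested on simulated data with 100 features changed 4-fold and 100 changed 2-fold. Between Minus_Rps26 and Plus_Rps26 85% of the 4-fold and 22% of the 2-fold changes were recovered. Against Rps3_TAP the shares were 13% and 0% for Minus_Rps26 and 20% and 1% for Plus_Rps26. The simulation changed far fewer features than were called for Minus_Rps26 against Plus_Rps26 (907 of 5668) or against Rps3_TAP (1524 of 5815). Its shares therefore do not give the share of real changes found in those comparisons. A subunit that was not called against Rps3_TAP may still differ.

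Replicate numbers were taken to pair eluate and flowthrough, following the purification protocol. The correlations between same-numbered libraries, as deviations from group means, were -0.20, 0.45 and 0.01. The description of Plus_Rps26 replicate 2 names flowthrough 1, and its title was followed. Replicates are described as biological. The 31 genes, the partner lists and the tests were chosen with earlier results of these data known. Values in every library are given for called subunits, the catalytic pairs, the shared subunits and the 3 highest and lowest fold changes, and of the partner genes those called, up to 4 in each direction. RPA34 was added to these after its values were seen. Alternatives tried were DESeq2 1.42.0, other scalings and filters, a length correction, the replicate block and leaving out each library. The lowest count of any polymerase gene in a library ran from 122 to 764; counting error is small beside the spread between libraries.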

Additional observations from a re-analysis of the deposited data

How the results depend on the processing

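Between Minus_Rps26 and Plus_Rps26, 4 subunits passed; the count was 10 with DESeq2 (3 higher and 7 lower, beside 12.1% and 14.8% of 5775 features), 0 with the coding length trend removed, 0 with the replicate block, 0 with the replicate block and the length trend removed together, 15 without both libraries of replicate 1 (beside 47.0% of features), and from 0 to 12 when single libraries were left out. It was 0 without any one of Minus_Rps26 replicates 2 and 3 and Plus_Rps26 replicates 2 and 3. In those settings 5 to 13 subunits kept an unadjusted p under 0.05, beside 1200 to 1620 of all features. The count was 2 without Minus_Rps26 replicate 1 (beside 3.76% of features) and 12 without Plus_Rps26 replicate 1 (43.6%). In each setting with 0 subunits no feature passed. Total-count scaling gave 6, all higher (19.0% of features in either direction), and put the fallen RPC10, RPC11 and RPO26 at -0.60, -0.24 and -0.13. Minus_Rps26 against Rps3_TAP went from 8 to 2 with the length trend removed (beside 12.2% of features), to 14 when only those 2 groups were fitted (40.8%), to 11 with total counts (10 higher and 1 lower; 30.8%), and from 4 to 14 with single libraries left out (10.6% to 41.3%). Plus_Rps26 against Rps3_TAP went from 0 to 3 with DESeq2 (7.22%) and from 0 to 3 with single libraries left out (0.501% to 10.1%). The causes were not tested, beyond the length trend that one alternative removes by construction. The correlation with length, 0.87, was -0.032 once that trend was removed and 0.80 to 0.90 with single libraries left out.

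Signs turned as follows. With the length trend removed, Minus_Rps26 against Plus_Rps26 gave RPA14 0.12, RPA135 -0.36, RPA190 -0.40, RPB4 0.37, RPB7 0.37, RPB9 0.35, RPC17 0.10, RPC25 0.065, RET1 -0.21, RPO21 -0.50 and RPO31 -0.42, and with the replicate block added RPA14 0.11, RPA135 -0.36, RPA190 -0.38, RPB4 0.41, RPB7 0.37, RPB9 0.36, RPC17 0.092, RPC25 0.068, RET1 -0.19, RPO21 -0.50 and RPO31 -0.38. Minus_Rps26 against Rps3_TAP gave RPA135 -0.41, RPA190 -0.75, RPB2 -0.78, RPB7 0.17, RPB9 0.76, RPB10 0.28, RPC11 1.00, RPC17 0.96, RPC19 0.26, RPC40 0.27 and RPO31 -0.87. Plus_Rps26 against Rps3_TAP gave RPA12 0.068, RPB9 0.43, RPB10 0.35, RPC31 0.093 and RPO26 0.20. With total counts the same comparisons gave, in turn, RPA14 0.15, RPB4 0.55, RPB7 0.48, RPB9 0.33, RPC17 0.21, RPC25 0.29, RPC34 0.17 and RPC40 0.39, then RPB7 0.38, RPB9 0.64, RPB10 0.22, RPC11 0.88, RPC17 1.12, RPC19 0.30, RPC40 1.21, RPO21 0.65 and RPO26 0.12, then RPA135 0.41, RPA190 0.020, RPB9 0.32, RPB10 0.23, RPC31 0.51 and RPO26 0.26. For Plus_Rps26 against Rps3_TAP, RPC19 was -0.0077 with DESeq2 and -0.0072 with its size factors in edgeR, and RPA135 was 0.00041 with only those groups fitted; RPC40 was 0.0027 for Minus_Rps26 against Rps3_TAP without the filter. Leaving out libraries (single ones, or both of replicate 1 where that could be done) gave values of both signs for RPA49 (-0.081 to 0.41), RPB4 (-0.29 to 0.10) and RPB5 (-0.061 to 0.68) in the first comparison, RPC17 (-0.21 to 0.071) and RPC40 (-0.12 to 0.070) in the second, and RPA135 (-0.17 to 0.070), RPC19 (-0.19 to 0.16), RPC31 (-0.45 to 0.12) and RPO26 (-0.25 to 0.0063) in the third. None of the turned values had passed the test as reported, apart from RPO26 against Rps3_TAP with total counts. Of the other values of subunits and named partner genes, 452, 397 and 377 in the 3 comparisons kept direction and side of the threshold, and 122, 73 and 6 crossed it without turning.

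The depth allowed at least 122 counts for any subunit in any library. Rps3_TAP has 1 library and no spread of its own.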

Other observations

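One column of the authors' deposited normalized values for Minus_Rps26 against Rps3_TAP repeats another. The columns named for eluates 1 and 3 held equal values in 5898 of 5898 rows, the 31 polymerase subunits included. The column named for eluate 3 stood in a constant ratio (within 1e-06) to the counts of Minus_Rps26 replicate 1 in 5716 of 5716 rows compared and to those of replicate 3 in 0 of 5704. The levels, fold changes and edgeR and DESeq2 results given above come from the count files, in which these replicates differ. The numbers credited to the authors' deposited tables do not. Whether the repeated column entered the authors' own comparison with Rps3_TAP was not tested.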
